A study of Homo sapiens with 8 samples.

Results

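The genes described here encode 38 proteins that the liver secretes into plasma: clotting factors and their inhibitors, the fibrinogen chains, complement proteins and carriers. They were chosen by name, as rows of the deposited non-normalized array table whose symbol is one of the 38, and all 38 had a row among the 34602 rows that are not ERCC controls. Of these, 33 were brighter than every one of the 92 ERCC rows, taken here as the background, on at least 4 of the 8 arrays. Those 33 were tested among 16049 such rows. F9, F11, F13B, PLG and C9 were not.

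The arrays came from Huh-1, an established human hepatocellular carcinoma line. Cells received an siRNA against LSD1 (siLSD1) or a control siRNA (siControl) by reverse transfection. LSD1 is a histone lysine demethylase. After 48 h all of them, siControl included, were moved to 1% O2 for 24 h, so that every culture was hypoxic. Each group holds 2 biological replicates (called replicates 1 and 2 here), each with 2 technical arrays. Nothing in the labels says how the replicate cultures were separated, so the tests measure the spread between these samples only.

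Hepatocytes make most plasma proteins. Clotting factors circulate as inactive zymogens that cleave one another in a cascade ending with thrombin, which turns fibrinogen into fibrin, while serpins and the protein C system restrain the cascade and plasmin dissolves the clot. Complement is a second protease cascade, in which convertases split C3 and C5 and the terminal components assemble a pore in the target membrane. Albumin, transthyretin and retinol-binding protein carry hormones, fatty acids and vitamins, and hepatocellular carcinoma lines keep part of this secretory programme.

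In all 33 plasma protein genes tested, the siControl replicates differed more from each other than the siLSD1 replicates did. The siLSD1 mean was nearer to siControl replicate 2 for 25 of the 33 (62.0% of all rows tested), and siControl replicate 1 was the lower siControl culture for 29. The fibrinogen genes FGA, FGB and FGG ran the other way and were low in siControl replicate 2. PROC and MASP1, near background in siLSD1 cells, were lower there than in either siControl replicate, with and without normalization. KNG1, RBP4, C3 and FGG were higher, also with and without it. On the non-normalized signals such separation of all arrays was found for 10.7% of all rows as lower and 8.57% as higher, so these counts, 2 and 4 of 33, are near the background. After normalization 2 of 33 were lower (11.5% of all rows) and 8 higher (12.0% of all rows). With another background correction (neqc) the log2 differences of PROC, MASP1, KNG1 and C3 shrank to -0.082, -0.053, 0.18 and 0.093. Those of RBP4 and FGG were then 0.54 and 1.36. No gene passed the test with 2 samples against 2, and the differences below are given as values.

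**Figure D1:**
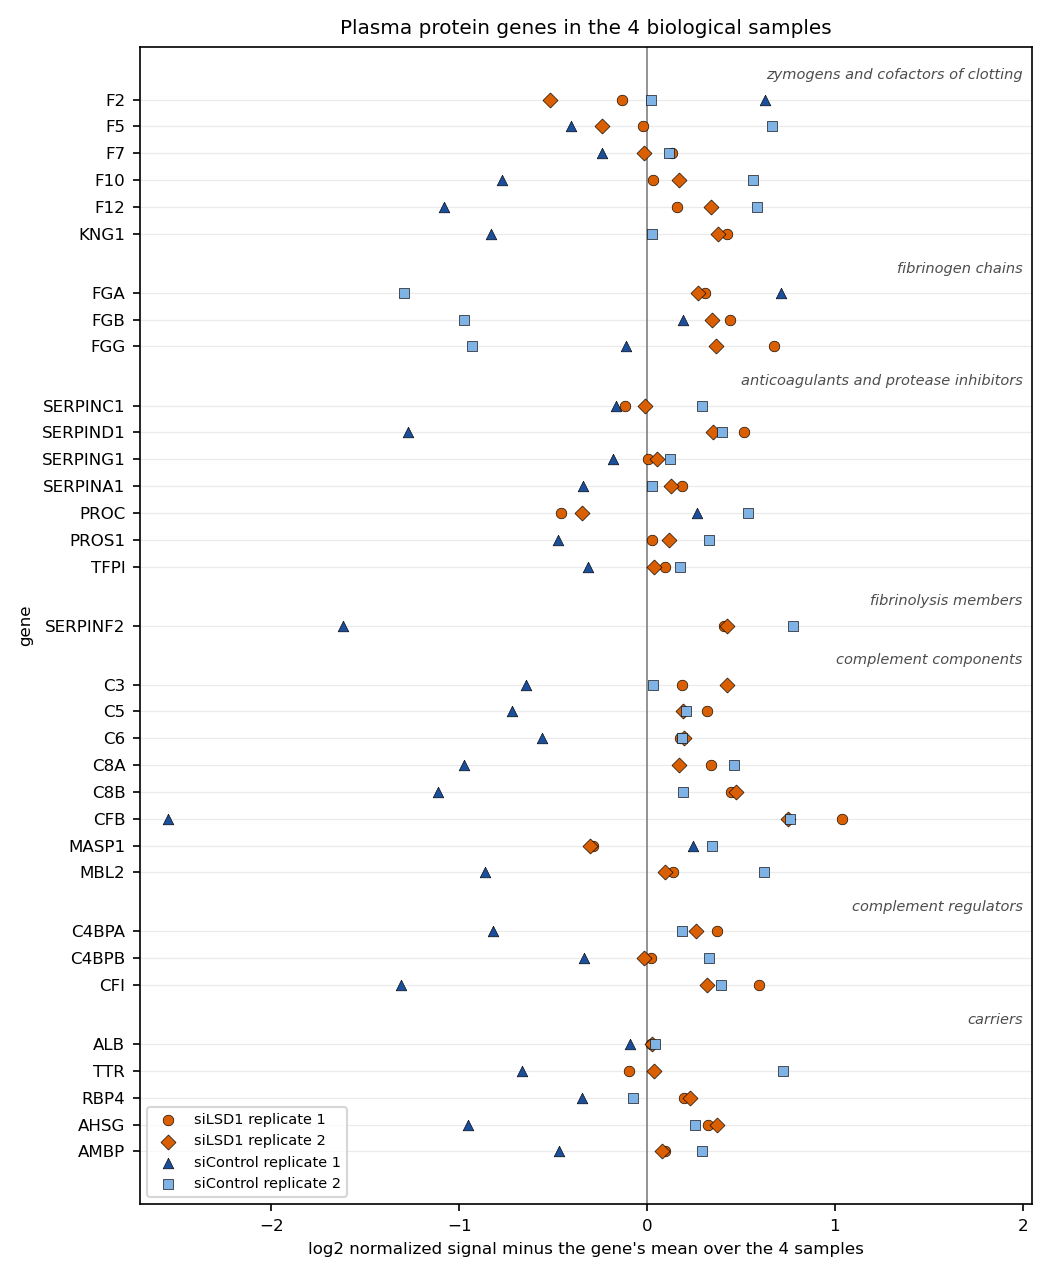
The horizontal axis gives the log2 normalized signal of each gene in each biological sample (mean of 2 arrays) minus that gene's mean over the 4 samples, for the 33 genes tested, grouped by role down the page. Circles and diamonds are siLSD1 replicates 1 and 2, triangles and squares siControl replicates 1 and 2; the triangle lies farthest to the left for most genes, and the square does so for FGA, FGB and FGG.

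Expression of the target was examined first. KDM1A, which encodes LSD1 and is listed under its older symbol AOF2, had normalized signals of 1434, 1508, 1392 and 1386 on the 4 siLSD1 arrays, against 3601 and 3485 for siControl replicate 1 and 4817 and 4206 for siControl replicate 2. The siLSD1 arrays were thus apart from and below those of siControl, with a log2 difference of -1.48 ± 0.17 (SE of limma's fit; adjusted p = 0.199). The difference in KDM1A was -1.66 without siControl replicate 1 and -1.31 without siControl replicate 2. Normalized signals here are on a linear scale after background correction and quantile normalization, and differences are on the log2 scale, siLSD1 minus siControl, unless stated. Of 9 hepatocyte markers outside the 38 genes, 8 were above background (FABP1 was not). Their summed non-normalized signal was 112585 to 123530 on the siLSD1 arrays and 65738 to 136006 on the siControl arrays. Endothelial markers were at background, 0 of 6 tested. Of the macrophage and leukocyte markers 4 of 7 were tested (PTPRC, MARCO and CD3E were at background), with sums of 2565 to 2811 on siLSD1 arrays and 2974 to 3576 on siControl arrays. Stellate cell and fibroblast markers had 2 of 7 tested (COL1A1, COL3A1, DCN, ACTA2 and PDGFRB were at background), with sums of 1983 to 2260.1 on siLSD1 arrays and 1995 to 2229.8 on siControl arrays. Biliary markers had 4 of 5 tested, with sums of 13033 to 15604 on siLSD1 arrays and 11951 to 13714 on siControl arrays. Platelet markers had 2 of 5 tested, with sums of 1002 to 1188 on siLSD1 arrays and 1113 to 1209.6 on siControl arrays. Of the hepatocyte markers APOA2 had arrays apart, at 0.79 ± 0.41 (1.42 against siControl replicate 1 and 0.17 against replicate 2). Of the other cells' markers CD163, RELN and EPCAM had arrays apart, at -0.68 ± 0.25, 1.09 ± 0.19 and 0.64 ± 0.19, and CD163 stood at -1.02 against siControl replicate 1 and -0.34 against replicate 2. All samples came from the Huh-1 line, so signals of these markers do not show that other cell types were present. The part of culture state in the differences below was not tested. In bulk RNA, fewer cells in a given state and less RNA per cell cannot be told apart.

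Across the 16049 rows, limma called 0 genes at an adjusted p under 0.05 (0% of rows), and 0 of the 33 plasma protein genes. At an unadjusted p under 0.05 it gave 5 of the 33, PROC, MASP1, FGG, KNG1 and RBP4, against 1840 or 11.5% of all rows. The adjusted p of the 33 genes ran from 0.25 to 0.995. A log2 difference over 1 was found for CFB and FGG as higher in siLSD1 (0.766% of all rows) and for 0 genes as lower (0.692% of all rows). An exact two-sided permutation test of 2 samples against 2 cannot give a p below 0.333. When the technical arrays were kept apart with the biological sample as a random block, 501 rows (3.12%) passed and FGG alone among the 33 (adjusted p = 0.0334). The count rests on the siControl cultures: a fit without siControl replicate 1 passed 9 of the 33 genes (14.5% of all rows), and one without siControl replicate 2 passed 26 (35.0% of all rows). These fits take the spread of the single siControl culture from siLSD1. Taken by culture, FGG was higher in siLSD1 than in both, and PROC and MASP1 were lower than in both. FGA, F10, MBL2 and TTR, among others, differed in opposite directions from the 2 cultures, and MBL2 was at background in siControl replicate 1.

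The median log2 difference of the 33 genes was 0.37, against 0.01 over all rows tested, with 27 genes above 0 and 6 below. With neqc, a background correction that infers negative controls from the detection p-values, the median of the 33 was 0.11. The log2 differences of 19 of the 33 were then over 1.5 times smaller or changed sign. These p-values were no rank of signal here, and how far neqc holds on them was not tested. The median was 0.31 with no background correction and 0.43 with an offset of 16. On the main normalized signals the median was 0.63 against siControl replicate 1, where 29 of 33 genes lay higher in siLSD1 (49.9% of all rows). Against siControl replicate 2 the median was -0.06, and 15 of 33 genes lay higher in siLSD1 (51.8% of all rows). The siLSD1 replicates themselves were close, with a median size of the gap of 0.10 over the 33 genes, against 0.85 between the siControl replicates. In all 33 genes the siControl replicates were further apart than the siLSD1 replicates, as they were in 72.6% of all rows. Technical arrays of 1 sample differed by a median of 0.07 to 0.08. The siLSD1 mean lay above both siControl replicates for 14 genes (42.4%, against 30.0% of all rows), below both for F2, PROC and MASP1 (9.09%, against 28.3%) and between them for 16 (48.5%, against 41.6%).

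Relative to siControl replicate 1, siControl replicate 2 was higher for 29 of the 33 genes (48.8% of all rows) and over 2-fold higher for 13 of them (2.84% of all rows). It was over 2-fold lower for FGA and FGB (1.77% of all rows). The median gap over the 33 genes was 0.76 on the log2 scale, against -0.01 over all rows. It was not particular to them: the median was 1.05 for the hepatocyte markers tested and 0.57 for liver transcription factors. Among further pathway genes it was 0.32, from 1.16 for other anticoagulants and serpins to -0.27 for other coagulation factors and cofactors.

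**Figure D2:**
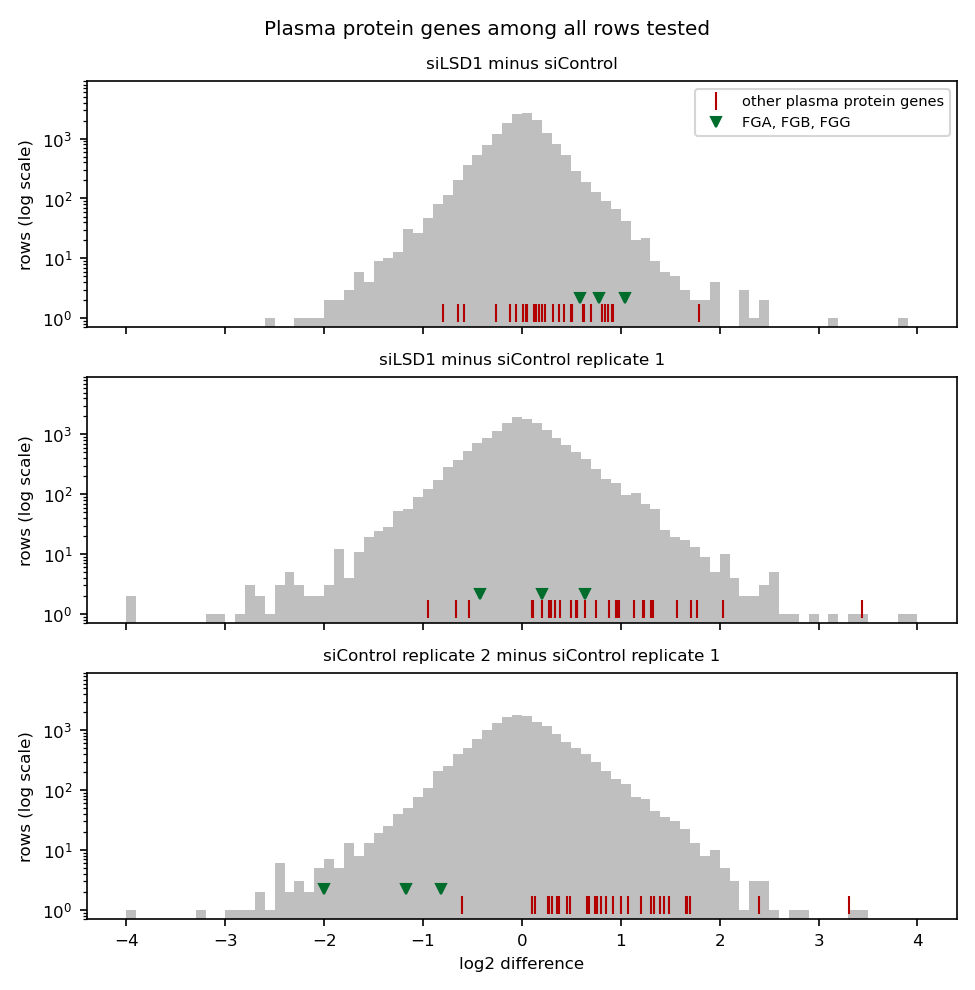
Histograms of the log2 difference over the 16049 rows tested (horizontal axis, values beyond 4 placed in the last bin; vertical axis, number of rows on a log scale) for siLSD1 minus siControl, siLSD1 minus siControl replicate 1, and siControl replicate 2 minus replicate 1. Red ticks mark 30 plasma protein genes and green triangles FGA, FGB and FGG; in the lowest panel the triangles lie left of 0 and nearly all ticks right of it, with medians of -1.17 for the fibrinogen genes and 0.76 for all 33.

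Fibrinogen is built from pairs of 3 chains, whose genes FGB, FGA and FGG lie next to each other with no protein-coding gene between them in the RefSeq annotation. Normalized signals of FGA, the alpha chain, were 4779, 4826, 4700.2 and 4665 on the 4 siLSD1 arrays, against 6529 and 6161 for siControl replicate 1 and 1612 and 1549 for siControl replicate 2. Thus FGA lay 3-fold above siControl replicate 2 in siLSD1 cells but at 0.748 times the level of siControl replicate 1, between the 2 siControl cultures. FGB, the beta chain, gave 12659, 12807, 12029.9 and 11792 in siLSD1 cells, and 11102 and 10365 in siControl replicate 1 and 4478 and 5080.0 in siControl replicate 2. It was 2.58-fold higher in siLSD1 cells than in siControl replicate 2 and 1.15-fold higher than in replicate 1, and the arrays of the groups did not overlap. For FGG, the gamma chain, the signals were 5754, 5486, 4843 and 4269 on the 4 siLSD1 arrays, against 3330.1 and 3182 for siControl replicate 1 and 1797 and 1893 for siControl replicate 2. FGG stood at 2.74 times the level of siControl replicate 2 and 1.55 times that of replicate 1, with no overlap of arrays.

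The log2 differences from the siControl mean were 0.58 ± 0.63 for FGA, 0.78 ± 0.39 for FGB and 1.04 ± 0.30 for FGG (adjusted p = 0.803, 0.528 and 0.335 with limma). Between the siControl replicates (2 minus 1) the differences were -2.00, -1.17 and -0.82, and FGA, FGB, FGG and F2 were the 4 of 33 genes in which siControl replicate 2 was the lower one. The deposited detection p-value of FGG was under 0.01 on 1 of 8 arrays although its signal was far above every ERCC row. A filter on that p-value would leave FGG out. It would also leave out SERPINA1, one of the brightest genes here, with 1 siLSD1 and 0 siControl arrays under 0.01.

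The promoters of the fibrinogen genes are shown because all 3 chains were lower in siControl replicate 2, and that of CFB because it had the widest gap of the 38 genes between the siControl cultures, in the opposite direction. They are RefSeq sequences of build GRCh38.p14, 250 bases before to 50 after the annotated start, 5′ to 3′. Capitals mark the letters TTCNNNGAA on either strand, the spaced palindrome read by STAT factors, which carry cytokine signals in liver cells. FGA lies at chr4:154590693-154590992, minus strand, FGB at chr4:154562730-154563029, plus strand, FGG at chr4:154612607-154612906, minus strand and CFB at chr6:31945845-31946144, plus strand.
FGA: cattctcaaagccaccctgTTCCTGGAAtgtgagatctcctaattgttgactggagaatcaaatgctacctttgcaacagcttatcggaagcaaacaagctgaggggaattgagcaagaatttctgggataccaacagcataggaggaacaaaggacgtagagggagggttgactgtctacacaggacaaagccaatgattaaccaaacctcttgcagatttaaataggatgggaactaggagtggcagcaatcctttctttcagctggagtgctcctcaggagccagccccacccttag
FGB: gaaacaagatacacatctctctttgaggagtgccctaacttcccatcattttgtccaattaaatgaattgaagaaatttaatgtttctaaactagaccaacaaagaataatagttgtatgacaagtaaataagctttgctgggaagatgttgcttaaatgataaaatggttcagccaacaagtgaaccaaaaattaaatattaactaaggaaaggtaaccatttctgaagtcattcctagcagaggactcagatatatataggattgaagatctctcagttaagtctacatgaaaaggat
FGG: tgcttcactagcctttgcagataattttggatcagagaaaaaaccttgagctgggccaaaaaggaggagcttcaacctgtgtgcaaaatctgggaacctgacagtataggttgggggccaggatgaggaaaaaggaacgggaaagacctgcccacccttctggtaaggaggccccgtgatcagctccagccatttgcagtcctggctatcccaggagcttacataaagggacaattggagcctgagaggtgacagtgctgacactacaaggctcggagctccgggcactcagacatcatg
CFB: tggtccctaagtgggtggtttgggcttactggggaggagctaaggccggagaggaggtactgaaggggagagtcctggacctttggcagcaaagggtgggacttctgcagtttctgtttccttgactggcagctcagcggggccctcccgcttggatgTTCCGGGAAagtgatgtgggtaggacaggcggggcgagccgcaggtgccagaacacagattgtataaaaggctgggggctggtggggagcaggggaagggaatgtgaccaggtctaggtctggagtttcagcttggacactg

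In these windows TTCNNNGAA occurs once in FGA, with its first base at -231 from the start, and once in CFB, at -92. FGB and FGG hold no match to these letters, and other forms of cytokine response site were not searched. Promoter entries matched 33 of the 38 genes by symbol, without SERPINC1, SERPING1, SERPINF2, C3 and TTR. TTCNNNGAA was found in 8 of the 33 (24.2%), CFB, F10, F9, FGA, MBL2, PROS1, RBP4 and SERPIND1, against 7.66% of all 35116 promoters. ACGTG on either strand, the core of hypoxia response elements, was found in F2 and KNG1 (6.06%), against 21.4% of all promoters. These are matches of letters, not sites shown to be bound, and both groups were hypoxic.

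Among the zymogens and cofactors of clotting, 6 of 9 genes were tested. F2, which encodes prothrombin, had normalized signals of 447, 638, 428 and 392 on the 4 siLSD1 arrays, against 1137 and 721 for siControl replicate 1 and 682 and 521 for siControl replicate 2. Both siLSD1 means of F2 lay below both siControl means, but 1 array of siLSD1 replicate 1 reached into the range of siControl replicate 2. The log2 difference of F2 was -0.65 ± 0.26 (adjusted p = 0.438), -1.01 on the first and -0.29 on the second technical arrays, and -0.175 with neqc. Taken by culture it was -0.95 relative to siControl replicate 1 and -0.35 relative to the other. KNG1, the kininogen gene of the contact system and source of bradykinin, gave 752, 768, 677 and 794 in siLSD1 cells, and 355 and 284 in siControl replicate 1 and 592 and 557 in siControl replicate 2. All siLSD1 arrays of KNG1 were above all siControl arrays, by 2.35-fold over replicate 1 and 1.3-fold over replicate 2 (0.80 ± 0.30, adjusted p = 0.409). With neqc the log2 difference of KNG1 was 0.177.

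F5, the cofactor of factor Xa, had 2472, 2362, 2106 and 2043 in siLSD1 cells, and 1843 and 1859 in siControl replicate 1 and 4093 and 3688 in siControl replicate 2, so that siLSD1 cells lay between the siControl cultures, 1.21 times replicate 1 and 0.576 times replicate 2. The same order held for F10, the zymogen of factor Xa, with 328, 355, 379.5 and 370.4 on the 4 siLSD1 arrays, against 189 and 201 for siControl replicate 1 and 545 and 446 for siControl replicate 2. Its siLSD1 mean was 1.84 times siControl replicate 1 and 0.725 times replicate 2. F12, which starts the contact pathway, gave 1127, 938, 1103 and 1232 in siLSD1 cells, and 489.8 and 389 in siControl replicate 1 and 1466 and 1302 in siControl replicate 2. This is 2.51 times siControl replicate 1 and 0.792 times replicate 2, again between them. Next to F10 lies F7, the gene of the extrinsic starter protease, which exceeded the ERCC rows on 3 siLSD1 and 2 siControl arrays and ran from 136 to 169 in siLSD1 cells and 122 to 161 in siControl cells. F9 and F11 exceeded the ERCC rows on 2 and 3 of 8 arrays, and F13B, the carrier subunit of the fibrin-stabilising factor, on 0, so no difference is given for them.

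All 7 genes for anticoagulants and protease inhibitors were tested. PROC encodes protein C, which when activated cleaves factors Va and VIIIa, and its normalized signals were 215, 175, 175 and 252 on the 4 siLSD1 arrays, against 337 and 305 for siControl replicate 1 and 396 and 377 for siControl replicate 2. Every siLSD1 array was below every siControl array, at 0.629 times siControl replicate 1 and 0.523 times replicate 2, a log2 difference of -0.80 ± 0.16 (adjusted p = 0.25). The siControl replicates of PROC differed by only 0.27, and PROC had the lowest adjusted p of the 33. With neqc the log2 difference of PROC was -0.0821, with no background correction -0.69 and with an offset of 16 -0.92. Non-normalized signals of PROC were 213 to 284 on the siLSD1 arrays, not far above the brightest ERCC row, at 164 to 228 per array. PROS1, the cofactor protein S, had signals that ran from 7217 to 7846 in siLSD1 cells, between the 5039 and 5314 of siControl replicate 1 and the 8692 and 9329.8 of replicate 2.

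Heparin cofactor II, encoded by SERPIND1, which inhibits thrombin, had 2009.9, 2001, 1871 and 1716 in siLSD1 cells, and 564 and 598 in siControl replicate 1 and 1796 and 1908 in siControl replicate 2. The siLSD1 mean of SERPIND1 was 3.27-fold above siControl replicate 1 and 1.02 times replicate 2, so that only replicate 1 stood apart. The log2 difference from both, 0.87 ± 0.53, was 0.461 with neqc. The main thrombin inhibitor antithrombin, SERPINC1, had overlapping arrays, with 1419 to 1626 in siLSD1 cells and 1372 to 1908 in siControl cells. SERPINA1, alpha-1-antitrypsin, the inhibitor of neutrophil elastase, gave 21665, 21309.6, 20162 and 21046 in siLSD1 cells, and 15213 and 14545 in siControl replicate 1 and 19013 and 19445 in siControl replicate 2. These arrays did not overlap after normalization, but the difference was small (0.32 ± 0.18, adjusted p = 0.587), and 0.13 without siControl replicate 1. SERPING1, the C1 inhibitor, ran from 895 to 1027 in siLSD1 cells and 840.0 to 1055 in siControl cells. TFPI, the inhibitor of the tissue factor pathway, ran from 3144 to 3439 in siLSD1 cells and 2419 to 3628 in siControl cells. Arrays of the groups overlapped in both genes.

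On the side of clot dissolution, PLG (plasminogen) was at background on all 8 arrays. SERPINF2, which encodes the plasmin inhibitor alpha-2-antiplasmin, had normalized signals of 2893, 2682, 2691 and 2957 on the 4 siLSD1 arrays, against 711 and 656 for siControl replicate 1 and 3444 and 3755 for siControl replicate 2. This was the second widest gap between siControl replicates among the 33 genes, 5.26-fold. The siLSD1 mean of SERPINF2 lay 4.1-fold above replicate 1 and at 0.779 times replicate 2, and the log2 difference from both was 0.84 ± 0.75 (adjusted p = 0.754), or 0.489 with neqc.

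**Figure D3:**
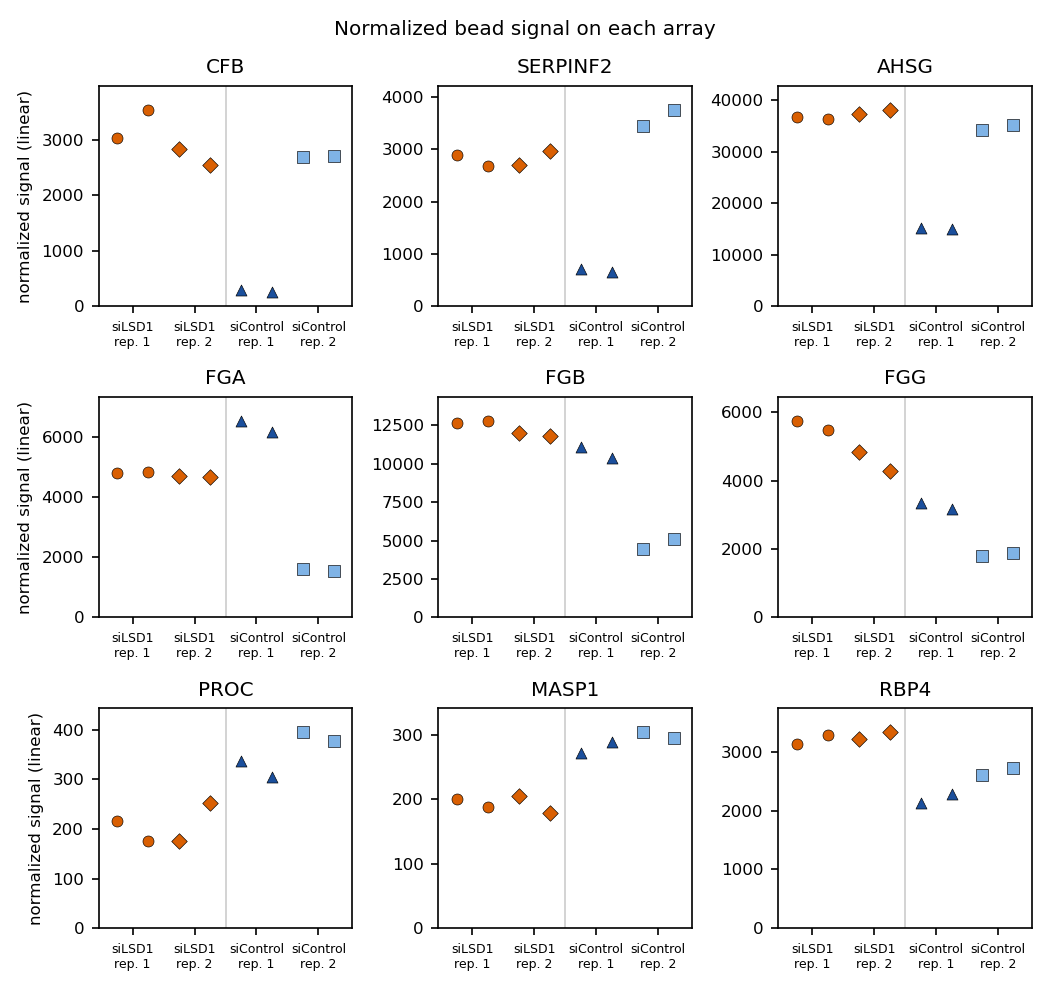
Normalized signal (vertical axis, linear, from 0) of 9 genes on each of the 8 arrays, 2 technical arrays per biological replicate, with siLSD1 left of siControl. In CFB, SERPINF2 and AHSG siControl replicate 1 is the low sample, in FGA, FGB and FGG siControl replicate 2 is, in PROC and MASP1 both siLSD1 replicates are low, and in RBP4 both are high.

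CFB had the largest difference of the complement genes. It encodes factor B, which supplies the protease of the alternative pathway convertase, and its normalized signals were 3035, 3549, 2838 and 2549 on the 4 siLSD1 arrays, against 289 and 258 for siControl replicate 1 and 2696 and 2719 for siControl replicate 2. Compared with siControl replicate 1, CFB was 10.9-fold higher in siLSD1 cells, but it was 1.1 times siControl replicate 2, with overlapping arrays. The log2 difference of 1.79 ± 1.03 (adjusted p = 0.592) rests on siControl replicate 1: without that culture it was 0.13. With neqc it was 1.00. C3, the component that all pathways cleave, gave 445, 465, 564 and 514 in siLSD1 cells, and 269 and 243 in siControl replicate 1 and 411 and 407 in siControl replicate 2. C3 arrays did not overlap, and siLSD1 cells had 1.94 times the level of replicate 1 and 1.21 times that of replicate 2 (0.62 ± 0.26, adjusted p = 0.459). With neqc the log2 difference of C3 was 0.0933.

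In the lectin pathway the protease and the lectin differed in pattern. MASP1, the protease bound to mannose-binding lectin, had 200.2, 187, 205 and 179 in siLSD1 cells, and 272 and 288 in siControl replicate 1 and 305 and 295 in siControl replicate 2. All siLSD1 arrays were below all siControl arrays, at 0.688 and 0.642 times siControl replicates 1 and 2. The log2 difference of MASP1 was -0.59 ± 0.14 (adjusted p = 0.282), and its siControl replicates were the closest of the 33 genes, 0.10 apart. After neqc MASP1 stood at -0.0529, with no background correction at -0.50 and with an offset of 16 at -0.69. Non-normalized signals of MASP1 were 216 to 254 on the siLSD1 arrays, also not far above the brightest ERCC row. MBL2, the lectin itself, gave 192, 229, 204 and 203 on the 4 siLSD1 arrays, against 103 and 106 for siControl replicate 1 and 257 and 335 for siControl replicate 2. The 2 arrays of siControl replicate 1 were not above the ERCC rows, so MBL2 was measured in 1 siControl culture only. Cells with siLSD1 stood at 0.704 times replicate 2.

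The terminal complement genes were all lowest in siControl replicate 1. C5, whose cleavage starts pore assembly, had 7486, 7274, 6341 and 7189 on the 4 siLSD1 arrays, against 3588 and 3611 for siControl replicate 1 and 6501 and 7165 for siControl replicate 2. With siLSD1 the level of C5 was 1.96 times siControl replicate 1 and 1.03 times replicate 2. C8A and C8B are adjacent genes for chains of the same pore component. C8A had 1162, 1138, 915 and 1139 in siLSD1 cells, and 491 and 436 in siControl replicate 1 and 1250.4 and 1254 in siControl replicate 2. C8B had 800.1, 841, 893 and 782 on the 4 siLSD1 arrays, against 276 and 282 for siControl replicate 1 and 728 and 651 for siControl replicate 2. Thus C8B arrays of siLSD1 cells were above all siControl arrays (0.92 ± 0.42, adjusted p = 0.496) and those of C8A were within the siControl range (0.51 ± 0.47, adjusted p = 0.761). The difference in C8B was 0.27 without siControl replicate 1, 1.57 without siControl replicate 2 and 0.204 with neqc, and that in C8A 0.139 with neqc. C6 ran from 258 to 287 in siLSD1 cells and 144 to 281 in siControl cells, where 2 of 4 arrays were above the ERCC rows. C9, which polymerises into the pore, was at background on every array.

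Fluid-phase control of complement needs factor I and C4b-binding protein, its cofactor. CFI, the gene of factor I, had 4870.1, 4865, 3965 and 4061 in siLSD1 cells, and 1324 and 1272 in siControl replicate 1 and 4306 and 4155 in siControl replicate 2, which is 3.4 times siControl replicate 1 and 1.04 times replicate 2. The genes of C4b-binding protein are neighbours. C4BPA, the alpha chain, gave 385, 423, 357 and 389.6 on the 4 siLSD1 arrays, against 179 and 174 for siControl replicate 1 and 312 and 403 for siControl replicate 2, with 3 of 4 siControl arrays above the ERCC rows. Its siLSD1 mean was 2.2 and 1.09 times siControl replicates 1 and 2. C4BPB, the beta chain that binds protein S, ran from 1808 to 1885 in siLSD1 cells, between the 1478 and 1435 of siControl replicate 1 and the 2245 and 2369 of replicate 2. Its log2 difference of 0.01 has no stable direction: it was -0.03 after neqc background correction, -0.06 with median scaling and -0.02 on the authors' normalized values.

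Of the carriers, RBP4 and AHSG had arrays that did not overlap. RBP4 encodes the retinol carrier of plasma, and its normalized signals were 3123, 3291, 3216 and 3340.3 on the 4 siLSD1 arrays, against 2121 and 2282 for siControl replicate 1 and 2610.1 and 2717 for siControl replicate 2. The groups did not overlap, with 1.47 and 1.22 times the level of siControl replicates 1 and 2 (0.42 ± 0.16, adjusted p = 0.424). TTR, transthyretin, which binds RBP4 in plasma and carries thyroxine, followed the other pattern: 1369, 1645, 1638 and 1660.2 in siLSD1 cells, and 984 and 1039 in siControl replicate 1 and 2849 and 2472 in siControl replicate 2. Its siLSD1 mean was 1.56 times siControl replicate 1 and 0.593 times replicate 2.

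AHSG, fetuin-A, which keeps calcium phosphate in solution, had 36736, 36268, 37240.5 and 38184 on the 4 siLSD1 arrays, against 15115 and 14912 for siControl replicate 1 and 34148 and 35222 for siControl replicate 2. The difference in AHSG (0.70 ± 0.40, adjusted p = 0.587) rests on siControl replicate 1: without that culture it was 0.10, or 1.07-fold. AMBP, the common precursor of alpha-1-microglobulin and bikunin, ran from 1843 to 1977 in siLSD1 cells and 1151 to 2402 in siControl cells. ALB, albumin, had normalized signals of 63781 to 65333 in siLSD1 cells and 59561 to 66332 in siControl cells. Only 7 rows of the table reached a higher signal, and whether a difference in ALB is compressed at the top of the scale was not tested.

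The 4 siLSD1 arrays lay above the 4 siControl arrays for 8 of the 33 genes, AHSG, C3, C8B, FGB, FGG, KNG1, RBP4 and SERPINA1 (12.0% of all rows), and below for 2, MASP1 and PROC (11.5% of all rows). On the non-normalized signals 4 genes were above, C3, FGG, KNG1 and RBP4 (8.57% of all rows), and the same 2 below (10.7% of all rows). With median scaling AHSG and C8B overlapped. The count depended on the siControl culture. Without siControl replicate 1 it was 9 above (24.7% of all rows) and 13 below (23.1% of all rows). Without siControl replicate 2 it was 29 above (30.1% of all rows) and 4 below (30.1% of all rows).

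Further plasma protein and pathway genes, 83 in number, were examined beside the 38. Of these 49 were tested, with a median log2 difference of 0.09, 0.32 against siControl replicate 1 and -0.03 against replicate 2, and 0 passed the adjusted test in either direction (14 at an unadjusted p under 0.05, against 11.5% of all rows). Arrays of the groups were apart for 15 as higher (12.0% of all rows) and 6 as lower (11.5% of all rows). Of 20 other carriers and liver plasma proteins 17 were tested, 13 with higher and 4 with lower estimates. HP, haptoglobin, which binds free haemoglobin, had a log2 difference of 1.99 ± 0.19 and was above the ERCC rows on 2 of 4 siControl arrays; its probes may be shared with a near-identical copy. APOH, a phospholipid-binding plasma protein also known as beta-2-glycoprotein I, stood at 1.34 ± 0.18 and the inter-alpha-inhibitor heavy chain gene ITIH2 at 1.26 ± 0.36. ITIH2 lay 1.80 above siControl replicate 1 and 0.71 above replicate 2, while APOH lay 1.51 and 1.16 above them. IGFBP1, an insulin-like growth factor carrier, stood at -0.59 ± 0.27, with -0.22 against siControl replicate 1 and -0.97 against replicate 2.

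Normalized signals of APOH were 8087, 8253, 7234 and 7622 on the 4 siLSD1 arrays, against 2847 and 2639 for siControl replicate 1 and 3474 and 3477 for siControl replicate 2. The siControl cultures of APOH differed by 0.34 on the log2 scale. In ITIH2 the signals were 4873, 4770.2, 4423 and 5236 in siLSD1 cells, and 1448 and 1318 in siControl replicate 1 and 2891 and 2997 in siControl replicate 2, so that siControl replicate 1 was again the low culture.

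Of 11 complement regulators outside the 38, 5 were tested, 3 with higher and 2 with lower estimates. CFHR2 stood at 0.73 ± 0.17 and CD59, the membrane inhibitor of the terminal pore, at 0.56 ± 0.14, both with arrays apart. CFHR2 belongs to a family of near-identical genes and may share probes with them. Of 20 other complement components 7 were tested, 3 with higher and 4 with lower estimates. CFD, factor D, the protease that activates factor B, had 1209, 1218, 1559.5 and 1491 in siLSD1 cells, and 2715 and 2879 in siControl replicate 1 and 3442 and 2800.2 in siControl replicate 2, with a log2 difference of -1.11 ± 0.18. C1RL, a C1r-like protease gene, stood at 1.01 ± 0.40, with 1.62 against siControl replicate 1 and 0.40 against replicate 2. C1S, the executing protease of the classical pathway, stood at 0.49 ± 0.20, with 0.70 and 0.28 against these cultures.

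Of 9 other coagulation factors and cofactors 3 were tested, and F3, tissue factor, stood at -0.54 ± 0.20 (-0.76 against siControl replicate 1 and -0.31 against replicate 2). Of 13 other anticoagulants and serpins 8 were tested, with SERPINA3, an inhibitor of cathepsin G, at -0.70 ± 0.14 and SERPINE2 at 0.42 ± 0.16. In fibrinolysis 5 of 6 were tested, with the urokinase receptor gene PLAUR at 0.51 ± 0.18 (0.32 against siControl replicate 1 and 0.70 against replicate 2), CPB2 at 0.21 ± 0.14 and S100A10 at -0.17 ± 0.14. Of the 4 genes around vitamin K, on which clotting factors and proteins C and S depend for carboxylation, all were tested, and VKORC1, which recycles the vitamin, stood at -0.42 ± 0.14. The adjusted p of the 21 genes with arrays apart ran from 0.199 to 0.712.

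**Figure D4:**
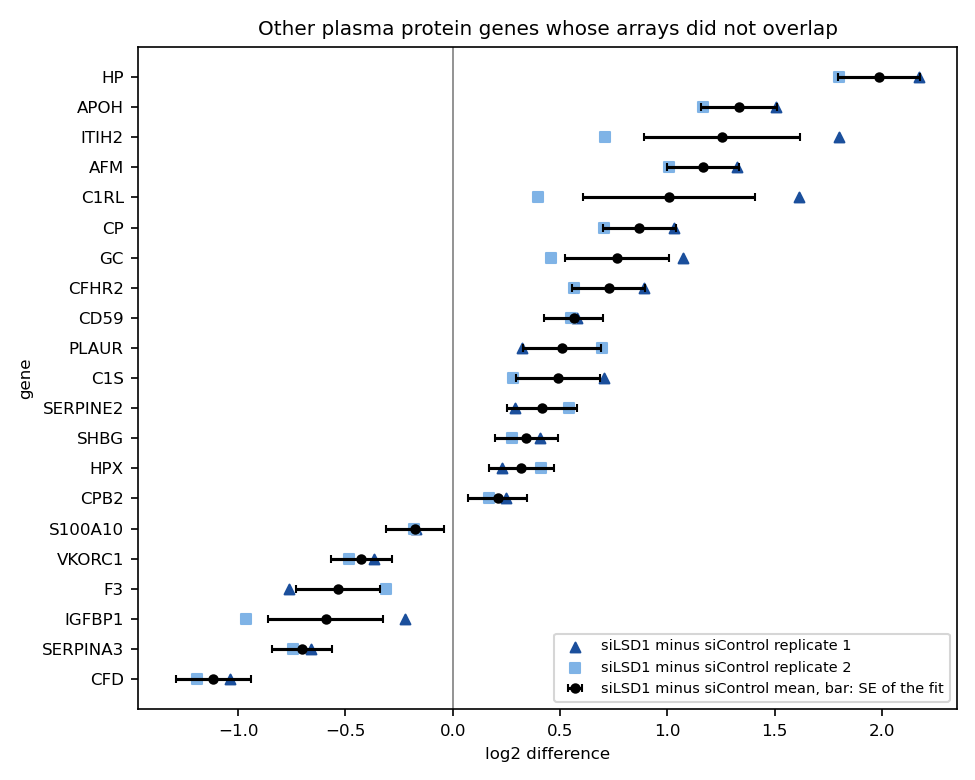
Log2 differences (horizontal axis) of the 21 pathway genes outside the 38 whose 4 siLSD1 arrays did not overlap the 4 siControl arrays, one gene per row. Black points with bars are siLSD1 minus the siControl mean with its SE from limma, and triangles and squares are siLSD1 minus siControl replicate 1 and 2; HP lies highest and CFD lowest.

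Transcription factors that act on liver genes were listed beside the 38, and 12 of 13 were tested, 10 with higher and 2 with lower estimates (median 0.37) and 0 past the adjusted test. NR1H4, the bile acid receptor FXR, had 5387, 5503, 4917 and 4228 on the 4 siLSD1 arrays, against 904 and 930.4 for siControl replicate 1 and 3616 and 3545 for siControl replicate 2, and thus had siControl replicate 1 as its low sample, like CFB and SERPINF2. NR0B2, a repressor that FXR induces, stood at 1.62 ± 0.30 and was above the ERCC rows on 2 of 4 siControl arrays, ONECUT1 at 0.68 ± 0.19. Whether these factors have a part in the plasma protein levels was not tested.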

How the data were processed

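Total RNA of Huh-1 cells was measured on Illumina bead arrays. The authors deposited a non-normalized table of bead signal intensity with a detection p-value per row and array, and a table of normalized intensity values; BeadStudio 3.1.1.0 is named per the submitters' processing notes, and the array type, the summary of probes to 1 row per symbol and the normalization are not given in the sources used here. The non-normalized signal was background-corrected (normexp, offset 50), quantile-normalized and log2-transformed, technical arrays were averaged, and siLSD1 was set against siControl with limma 3.58.1 in R 4.3.3 (lmFit, eBayes, Benjamini-Hochberg adjustment over all 16049 rows tested, threshold 0.05). A row was tested if it was brighter than every ERCC row, at most 164 to 228 in signal, on at least 4 of 8 arrays. The deposited detection p-value was no rank of signal and was used as an alternative only. The fit was tested only on simulated data with equal spread in both groups, so that check does not cover the wider siControl spread seen here. The number of arrays and samples limits the precision; median signal per array was 168 to 179.9.

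All 38 genes are named; values on every array are given for those whose arrays do not overlap, with a log2 difference over 1 or a gap over 1 between siControl replicates, and for the fibrinogen chains; C5 and F2 were added after their values were seen. From other lists up to 3 genes per direction with arrays apart are named. The genes and lists were chosen with earlier results of these data known. Some items are not reported here and are left out of the lists and counts.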

Additional observations from a re-analysis of the deposited data

How the results depend on the processing

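The alternatives were neqc or no background correction, an offset of 16, median scaling, the authors' normalized values, 3 other filters, each technical array alone, technical arrays as a random block, a replicate block and leaving out each biological replicate. The direction of single genes changed for C4BPB (-0.0287 with neqc, -0.058 with median scaling, -0.0151 on the authors' values, -0.0118 on the second technical arrays) and for TTR (0.0443 on the second technical arrays). With technical arrays as a random block 501 rows, 1 plasma protein gene (FGG) and KDM1A (-1.48) passed. The fit with the replicate block called 0 rows and 0 plasma protein genes, so no call changed. The labels do not say whether samples with the same replicate number shared a day or batch. Over rows, the differences between replicates 2 and 1 correlated at 0.12 between siLSD1 and siControl. With so few samples neither result can decide whether same-numbered samples were paired. A fit without siControl replicate 1 or 2 assumes that the lone siControl sample varies like siLSD1.

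Leaving out 1 biological replicate gave 0 to 5613 rows past the threshold (2320 without siControl replicate 1, 5613 without siControl replicate 2, 0 without either siLSD1 replicate) and 0 to 26 of the plasma protein genes (9 without siControl replicate 1, 26 without siControl replicate 2). KDM1A ranged from -1.66 to -1.31. Genes with every siLSD1 sample above every siControl sample numbered 9 in the full data and 10 to 29 on leaving one out. Those with every siLSD1 sample below numbered 3 in the full data and 3 to 17 on leaving one out. Such separation is easier with 1 sample left in a group, and the share over all rows is not given for these counts. Without siControl replicate 1, 9 genes had arrays above (24.7% of all rows) and 13 below (23.1% of all rows). Without siControl replicate 2, 29 had arrays above (30.1% of all rows) and 4 below (30.1% of all rows). The ranges of single genes whose direction changed were -0.0571 to 0.30 for F7, -0.46 to 0.88 for F10, -0.34 to 1.33 for F12, -0.10 to 0.21 for SERPING1, -0.26 to 0.54 for PROS1, -0.11 to 0.38 for TFPI, -0.36 to 2.04 for SERPINF2, -0.21 to 1.23 for C8A, -0.51 to 0.98 for MBL2, -0.32 to 0.34 for C4BPB, -0.0219 to 0.11 for ALB, -0.21 to 0.56 for AMBP, -0.80 to 0.27 for F5, -0.42 to 1.59 for FGA, -0.36 to 0.10 for SERPINC1, -0.75 to 0.64 for TTR. The 0.98 of MBL2 is against siControl replicate 1, where MBL2 was at background. The median of the 33 genes ran from -0.06 to 0.63 over the fits without 1 biological replicate. Over the other settings it ran from 0.11 (neqc) to 0.43 (offset of 16). With neqc the differences of 19 of the 33 genes were over 1.5 times smaller or changed sign, PROC, MASP1, KNG1 and C3 among them. The same held for 0 of the 33 with no background correction, 0 with an offset of 16 and 2 on the authors' normalized values. The neqc correction rests on the deposited detection p-values, which were no rank of signal, and the cause was not tested.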
